A study of Mus musculus with 16 samples.

Results

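The genes described here are named for the proteins of the cytosolic ribosome and were taken by symbol. The RNA profiles are of the tibialis anterior, a hindlimb muscle, in a study of mice that lack the ubiquitin ligase UBR4 in muscle. The symbol pattern takes the Rpl and Rps genes, Rplp0, Rplp1, Rplp2 and Rpsa and leaves out rows named as pseudogenes, and it found 86 of 47643 gene rows, 53 for the large and 33 for the small subunit. A coding sequence was found for 83 of the 86, while Rpl6l, Rps12l1 and Rps4l are annotated as pseudogenes (GENCODE vM21) despite their names. Levels are in TPM, each gene's share of all transcripts after correction for length. A mean of at least 1 TPM over the samples was reached by 81 of the 86, 50 and 31 for the large and the small subunit, and 10628 rows in all passed this limit. The study has 16 samples, 4 in each of 4 groups, from mice of 6 or 24 months that carried UBR4fl/fl alleles with ACTA1-Cre (UBR4 mKO) or without it (WT). ACTA1-Cre is driven by a skeletal actin promoter and acts in skeletal myofibers, so the other cells of the muscle kept UBR4. Both genotypes received tamoxifen, which activates the Cre, as young adults, and the WT animals were siblings. All 16 mice are labelled male.

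A cytosolic ribosome holds 1 copy of most of these proteins, and its large and small subunits are put together in the nucleolus from ribosomal RNA and proteins imported from the cytoplasm. Ribosomal protein mRNAs begin with a run of pyrimidines, the TOP motif, through which mTORC1 and the RNA-binding protein LARP1 set how strongly they are translated. Several of the proteins have paralogs used in certain tissues. In striated muscle RPL3L takes the place of RPL3, which sits close to the peptidyl transferase centre and is made in almost all cells, and Rpl3l RNA is known to fall and Rpl3 RNA to rise when muscle is overloaded.

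The identity of the samples was checked before the ribosomal genes were compared. Ubr4 lay between 9.09 and 15.7 TPM in 6-month WT and between 4.91 and 6.54 TPM in 6-month UBR4 mKO, a log2 fold change of -1.12 (SE 0.26, limma adjusted p = 0.0037). At 24 months Ubr4 lay between 17.0 and 21.1 TPM in WT and between 4.28 and 14.6 TPM in UBR4 mKO. The log2 fold change was -1.12 (SE 0.26, limma adjusted p = 0.060), -1.14 after the scaling described below (limma adjusted p = 0.028) and -0.80 without replicate 3 of 24-month UBR4 mKO (limma adjusted p = 0.076). Without that replicate Ubr4 also rose with age in UBR4 mKO, by 0.92 (limma adjusted p = 0.0084), against 0.60 with it (limma adjusted p = 0.20). In the fit without that replicate Ubr4 also rose with age in WT, by 0.60 (limma adjusted p = 0.019). The interaction there was 0.32 (limma adjusted p = 0.42). The 10 myofiber genes checked were detected in every group, with summed levels from 72966 to 100993 TPM. Replicate 4 of 6-month UBR4 mKO went against its label for sex: it held 23.8 TPM of Xist, the RNA of the inactive X chromosome, and 0.073 TPM of the Y-linked gene Ddx3y. The other 6-month samples held both RNAs, with Xist from 0.711 to 13.0 TPM, and the 24-month samples had at most 0.025 TPM of Xist. Where leaving this sample out ended a call or moved a count at 6 months by much, the value without it is therefore also given. Every age comparison also sets samples with Xist RNA against samples with at most 0.025 TPM of it. A difference tied to this cannot be told apart from one of age.

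Start sites and coding sequences are shown first, since the results turn on one pair of paralogs and on copies of single genes. Windows around annotated start sites were found for 63 of the 86 genes, with 75 windows (RefSeq, GRCm38.p6). The next 5 lines give 20 bases before to 20 bases after the start on the gene's own strand for genes with long pyrimidine runs, and for Rpl3l, with any run of at least 5 C or T that holds the start in capitals.
Rpl15, chr14:18270967-18271006 (-): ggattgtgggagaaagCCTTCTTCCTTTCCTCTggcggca
Rpl35, chr2:39005112-39005151 (-): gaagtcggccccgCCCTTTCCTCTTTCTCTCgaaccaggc
Rps10, chr17:27635225-27635264 (-): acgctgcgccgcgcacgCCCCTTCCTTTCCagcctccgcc
Rps6, chr4:86857348-86857387 (-): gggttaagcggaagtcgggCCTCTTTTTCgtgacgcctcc
Rpl3l, chr17:24727806-24727845 (+): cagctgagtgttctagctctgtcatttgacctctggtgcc
A start at C followed by C or T for at least 5 letters in all was present in 17.3% of the 75 windows and in 2.51% of the 32851 windows of all genes. This share rests on the annotated base. Rpl7a, Rpl27a and Rpl34 had runs of 21, 20 and 20 letters that hold the start, but with T as the annotated base. Whether the annotated base is the first one transcribed in this muscle was not tested. The letters CCGGAAG, searched on both strands over 300 bases, occurred in 34.7% of the ribosomal windows and 8.86% of all windows, AAGATGGC in 10.7% and 2.75%, and GGGCGG in 60.0% and 35.7%. The E-box letters CAGCTG, by contrast, occurred in 5.33% and 16.3%. TATAAA was searched in a narrower stretch, 40 to 16 bases before the start on the gene's own strand, and occurred there in 1.33% and 1.99%. Runs of at least 5 C or T that hold the start were present in 26.7% of the 75 windows and in 10.1% of all windows, and the Rpl3l window held none.

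Rpl3 lies at chr15:80077791-80091868 on the minus strand and Rpl3l at chr17:24727820-24736143 on the plus strand (GENCODE vM21, GRCm38). Their coding sequences were 75.3% identical over the aligned part. The first 90 coding bases are given below with the 21 differing positions in capitals, since these differences are what allows reads to be told apart between the paralogs.
Rpl3: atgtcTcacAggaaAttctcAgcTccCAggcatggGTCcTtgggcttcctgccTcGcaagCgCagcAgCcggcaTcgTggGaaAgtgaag
Rpl3l: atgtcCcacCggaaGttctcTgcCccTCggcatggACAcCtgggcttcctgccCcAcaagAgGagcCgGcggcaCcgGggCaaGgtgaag
For Rpl10, by contrast, the coding sequence is repeated without a difference in Rpl10-ps3 at chr9:50344201-50344968, and the first 90 bases of both read the same.
Rpl10: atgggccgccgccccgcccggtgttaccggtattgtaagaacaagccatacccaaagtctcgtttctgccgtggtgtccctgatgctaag
Rpl10-ps3: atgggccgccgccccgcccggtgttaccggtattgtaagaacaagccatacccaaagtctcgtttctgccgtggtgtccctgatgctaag

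Ribosomal protein genes were among the highly expressed genes of the muscle. Their mean TPM had a median of 201 TPM, against 6.86 TPM over all genes tested. Of the 81, 7 had a mean of at least 500 TPM, 54 lay from 100 to 500 TPM, and 20 lay below 100 TPM. The highest means were those of Rplp1 (1256 TPM) and Rplp0 (626 TPM), proteins of the stalk that recruits translation factors, and of Rpl4 (604 TPM), a protein of the peptide exit tunnel. The lowest of the genes tested were Rpl7l1 (17.4 TPM), Rpl27 (18.8 TPM) and Rpl3 (31.0 TPM). Rpl3l, at a mean of 427 TPM, lay far above Rpl3. The remaining 5 genes did not reach the limit. Rpl39l and Rpl6l had means of 0.163 and 0.055 TPM, and Rpl10l, Rps12l1 and Rps4l were listed at 0 in all 16 samples. Of these, Rpl6l, Rps12l1 and Rps4l are annotated as pseudogenes, and Rpl39l and Rpl10l as protein-coding.

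Near-identical copies bear on several of these levels. Reads of a gene with a near-identical copy elsewhere in the genome may be given to either, and how the authors' counting treated them is not given in the sources used here. Among transcribed copies at least 95% identical to a ribosomal coding sequence, 10 had a mean of at least 1 TPM, for 9 of the genes. Rpl10-ps3 held 573 TPM against 40.9 TPM for Rpl10, and Rpl27-ps3 held 415 TPM against 18.8 TPM for Rpl27, both with an identical coding sequence. For Rps12 (181 TPM) the identical copy Rps12-ps3 held 290 TPM, and for Rps27 (194 TPM) the copy Rps27rt held 138 TPM. The levels of these genes are therefore uncertain, and changes in them are given below with the copies added. Gm6311, 98.9% identical to Rps2, ranged from 10.2 to 135 TPM among the 12 samples of the other groups and from 1.74 to 2.64 TPM in 24-month UBR4 mKO. It was low in all 4 of these samples, while Rps2 itself lay between 394 and 556 TPM in them.

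**Figure D1:**
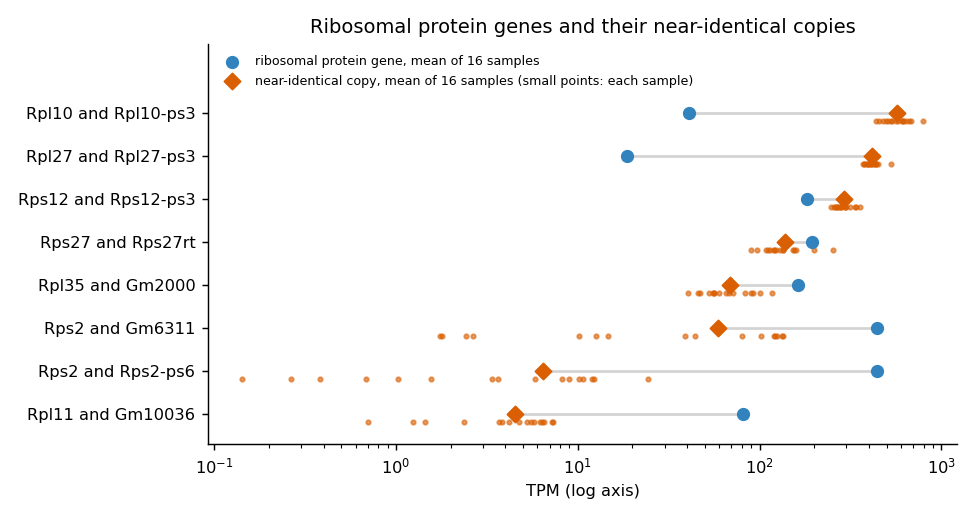
Mean TPM over 16 samples (log axis) of ribosomal protein genes (circles) and of the 8 near-identical copies with the highest means (diamonds), with the copy's value in each sample as small points. For Rpl10, Rpl27 and Rps12 the copy lies above the gene, and Gm6311 spreads from 1.74 to 135 TPM.

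The 86 genes together took 1.82 to 2.59% of all TPM. In 6-month WT this share was 1.82 to 1.88%, in 6-month UBR4 mKO 1.89 to 2.05%, in 24-month WT 1.86 to 2.16%, and in 24-month UBR4 mKO 1.98 to 2.59%. The highest value, 2.59%, was that of replicate 3 of 24-month UBR4 mKO, and the 6-month groups did not overlap. Counted against the TPM of non-mitochondrial genes alone, the order of the 6-month groups turned: 3.96 to 4.57% in WT and 3.57 to 3.84% in UBR4 mKO, again without overlap. The 37 genes of the mitochondrial genome took 52.6 to 59.7% of TPM in 6-month WT and 46.1 to 49.8% in 6-month UBR4 mKO. Since the TPM values of every sample add up to the same total, the direction of a small change depends on the reference, so the changes of the whole set are given in TPM, under median-of-ratios scaling (which sets the median gene equal between samples) and relative to the median of all genes. Single genes are given in TPM, with the scaled value where it ended a call, turned the sign or differed much in size.

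**Figure D2:**
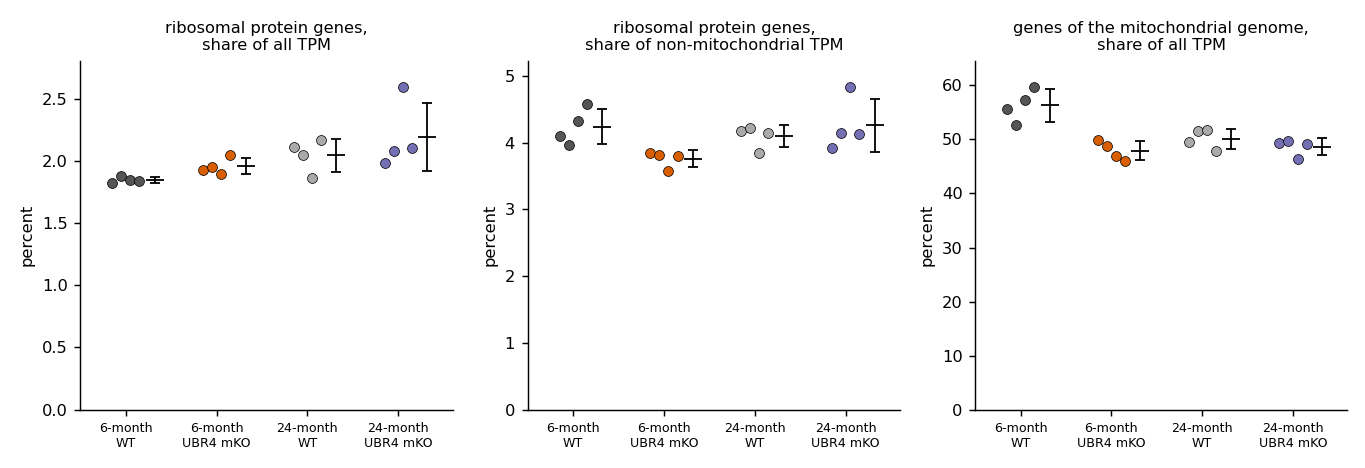
Percent of all TPM (left) and of non-mitochondrial TPM (middle) held by ribosomal protein genes, and percent of TPM held by genes of the mitochondrial genome (right), for each of 4 samples a group with the mean and SD. The 6-month UBR4 mKO samples lie above 6-month WT on the left and below them in the middle, and 1 sample of 24-month UBR4 mKO, at 2.59%, lies above the others.

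Replicate 3 of 24-month UBR4 mKO stood apart for these genes. Of the 81 genes, 76 had their highest TPM of all 16 samples in it, against 11.5% of all genes tested. In it 78 of the 81 also lay above the other 3 samples of the group, against 22.8% of all genes. Its ribosomal genes exceeded the mean of these 3 samples by a median log2 of 0.33, while the median of all genes was -0.19. Where leaving it out ended a call or moved a value of this group by much, the value without it is also given. Replicate 4 of 6-month WT had the lowest scaling factor (0.717, against 0.856 to 1.17 in the other 15 samples), and 5989 of the 10628 genes tested had their lowest TPM in it.

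The first question was whether loss of UBR4 changed ribosomal protein RNA at 6 months. The TPM of these genes hardly moved while that of most genes rose: their median log2 fold change was 0.087, against 0.33 over all genes, and 80 of the 81 lay below the median of all genes. In TPM 12 of the 81 rose and 0 fell (limma, adjusted p under 0.05), against 43.7% of all genes higher and 1.15% lower. Another 6 genes had an unadjusted p under 0.05 without passing the adjusted threshold, so 18 in all, or 22.2%, against 55.5% of all genes. All 4 UBR4 mKO samples lay above all WT samples for 29 of the 81 genes, against 39.0% of all genes.
Under median-of-ratios scaling the direction turned. The median was then -0.27 for the ribosomal genes and -0.018 for all genes, and 9 of the 81 fell and 0 rose, against 10.2% of all genes lower and 6.66% higher. In these 2 fits the share of ribosomal genes called was near or below that of all genes, but in 2 others it was above: 17 of the 81 (21.0%) fell when mitochondrial genes were left out of the total, against 5.87% of all genes, and 48 (59.3%) fell after scaling without replicate 3 of 24-month UBR4 mKO, against 17.1%. Large and small subunit genes had similar medians, 0.081 and 0.091 in TPM.
Relative to the median of all genes the ribosomal genes were lower by 0.24 in log2 TPM and by 0.25 after scaling. In single samples the median ribosomal gene lay above the median gene by a log2 of 4.78 to 5.31 in WT and of 4.68 to 4.79 in UBR4 mKO, so the groups overlapped slightly. The difference depended on replicate 4 of 6-month WT: without it the values were -0.16 and -0.17, and 0 of the 81 genes were called after scaling, against 6.18% of all genes lower. Without replicate 4 of 6-month UBR4 mKO the difference was -0.23 in TPM, with 5 genes called higher, against 29.1% of all genes, and after scaling 2 were called lower, against 9.63%.

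Rpl3 was the gene that did not follow the rest. It lay at 18.5, 22.1, 22.8 and 18.6 TPM in 6-month WT and at 36.8, 31.4, 28.0 and 29.6 TPM in 6-month UBR4 mKO. All UBR4 mKO samples were higher than all WT samples, by a log2 fold change of 0.61 (SE 0.15, limma adjusted p = 0.0044). It was the single one of the 81 genes above the median change of all genes at 6 months, and after scaling it had 0.26 on the log2 scale (limma adjusted p = 0.30). Without replicate 4 of 6-month UBR4 mKO the log2 fold change was 0.64 in TPM.
The other genes that rose in TPM rose by less. Rpl27 rose by a log2 of 0.30 (limma adjusted p = 0.034). The call ended without replicate 4 of 6-month UBR4 mKO (0.28, limma adjusted p = 0.087) and without replicate 4 of 6-month WT (0.27, limma adjusted p = 0.097), and summed with its copy the value was 0.15 (limma adjusted p = 0.13). Rpl7l1, a paralog of Rpl7 linked to ribosome assembly, went from 14.3 to 16.3 TPM in WT to 17.9 to 19.1 TPM in UBR4 mKO, by a log2 of 0.26 (limma adjusted p = 0.012). Rpl3l went from 351 to 409 TPM in WT to 431 to 480 TPM in UBR4 mKO, by a log2 of 0.25 (limma adjusted p = 0.010). After scaling the signs of these 3 turned, with log2 fold changes of -0.047, -0.094 and -0.10. The other 8 that passed in TPM lay between 0.18 and 0.23, among them Rps7, Rpl23, Rpl35a, Rpl5, Rpl17, Rpl19 and Rps24.
At the other end were genes whose TPM stayed level or was lower in UBR4 mKO. Rpl22l1, the paralog of the RNA-binding protein Rpl22, lay at 67.2, 63.4, 67.4 and 72.1 TPM in WT and at 61.4, 59.4, 61.7 and 55.8 TPM in UBR4 mKO. The groups did not overlap, and the log2 fold change was -0.18 in TPM (limma adjusted p = 0.10) and -0.53 after scaling (limma adjusted p = 0.017). The other 8 that fell after scaling lay between -0.49 and -0.29, among them Rps12, Rps27l, Rpl36al, Rpl9, Rpl8 and Rpl4. Rps12 summed with its copy had a log2 fold change of 0.061 in TPM, against -0.13 alone.

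**Figure D3:**
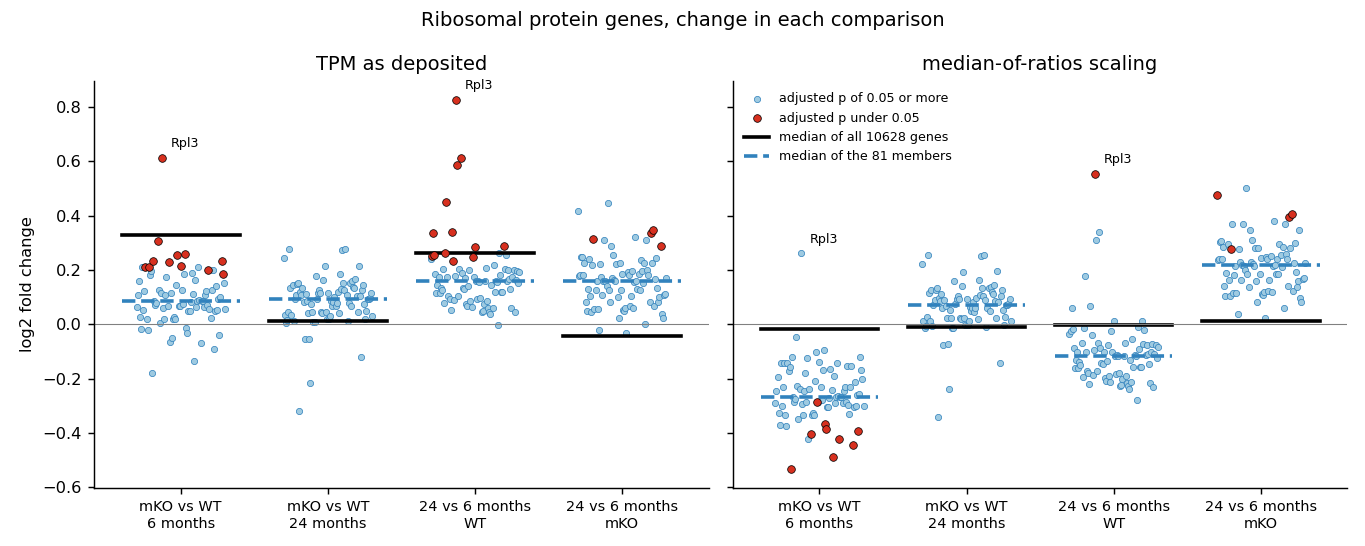
Log2 fold change of each of the 81 ribosomal protein genes in 4 comparisons, in TPM as deposited (left) and under median-of-ratios scaling (right), with genes at an adjusted p under 0.05 in red, the median of all 10628 genes as a black line and the median of the 81 as a dashed line. At 6 months the 81 lie below the line of all genes except Rpl3, and with age in UBR4 mKO they lie above it.

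At 24 months the same comparison gave no ribosomal gene past the threshold. Their median log2 fold change was 0.094, against 0.013 over all genes, and limma called 0 of 81 in either direction, against 0.630% of all genes. At an unadjusted p under 0.05 there were 10, or 12.3%, against 10.1% of all genes. After scaling 0 of 81 were called, against 0.913% of all genes, with 2 at an unadjusted p under 0.05, against 13.4% of all genes. The sign of the difference from all genes rested on replicate 3 of 24-month UBR4 mKO: with it the ribosomal median was higher by 0.081, and without it lower by 0.051.
The smallest unadjusted p-values belonged to Rpl22l1, Rpl13a and Rpl3l. Rpl22l1 lay at 103, 85.0, 100.5 and 82.0 TPM in 24-month WT and at 68.0, 81.8, 77.8 and 69.1 TPM in UBR4 mKO, below it in every sample as at 6 months. The log2 fold change was -0.32 (SE 0.089, limma adjusted p = 0.15), and -0.34 without replicate 3 of UBR4 mKO. Rpl13a, also known for a role in silencing of inflammatory mRNAs, lay from 319 to 364 TPM in WT and from 370 to 507 TPM in UBR4 mKO, with a log2 fold change of 0.28 (limma adjusted p = 0.20) and 0.18 without replicate 3. Rpl3l lay from 380 to 418 TPM in WT and from 435 to 517 TPM in UBR4 mKO, above it in every sample, with a log2 fold change of 0.21 (limma adjusted p = 0.23) and 0.16 without replicate 3. Rpl3 lay at 37.7, 33.5, 30.1 and 45.5 TPM in WT and at 32.6, 30.6, 47.0 and 31.9 TPM in UBR4 mKO, and these groups overlapped over almost their whole range.

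The next question was how these RNAs differed with age in WT muscle, where the ages also differed in Xist RNA. In TPM 80 of the 81 had a positive log2 fold change, but their median, 0.16, lay below that of all genes, 0.26, and 73 of the 81 lay below it. Limma called 13 of 81 higher and 0 lower, against 24.0% and 1.07% of all genes. All 4 of the 24-month samples lay above all 6-month samples for 23 of the 81 genes, against 24.1% of all genes. After scaling 1 gene was called higher and 0 lower, against 4.44% and 5.33% of all genes. The difference of the medians, -0.11, was -0.031 without replicate 4 of 6-month WT.
Rpl3 had the greatest rise of the 81. It went from 18.5 to 22.8 TPM at 6 months to 30.1 to 45.5 TPM at 24 months, a log2 fold change of 0.83 (SE 0.15, limma adjusted p = 0.0014). It was also the one gene called after scaling, with 0.55 (limma adjusted p = 0.046), a call that ended without replicate 4 of 6-month WT (0.59, limma adjusted p = 0.084) and without replicate 4 of 6-month UBR4 mKO (0.55, limma adjusted p = 0.051). Rpl34 went from 45.1 to 65.0 TPM to 70.8 to 82.3 TPM, by a log2 of 0.61 (limma adjusted p = 0.0093), and Rpl30 went from 48.9 to 59.5 TPM to 77.5 to 92.4 TPM, by 0.59 (limma adjusted p = 0.014). Rpl22l1 rose by 0.45 (limma adjusted p = 0.0030), from 63.4 to 72.1 TPM to 82.0 to 103 TPM. After scaling Rpl34, Rpl30 and Rpl22l1 had log2 fold changes of 0.34, 0.31 and 0.18 (limma adjusted p = 0.19, 0.35 and 0.46). The 9 others were Rpl27, Rpl11, Rps25, Rpl5, Rpl22, Rpl12, Rpl10a, Rpl4 and Rpl27a, between 0.23 and 0.34. Rpl5 and Rpl11, which with 5S RNA form a particle that can bind MDM2, were among the genes that rose, with log2 fold changes of 0.29 and 0.34. Rpl27 summed with its copy had 0.079 (limma adjusted p = 0.44). Rpl3l had a log2 fold change of 0.064 (limma adjusted p = 0.47) and its groups overlapped, from 351 to 409 TPM at 6 months and from 380 to 418 TPM at 24 months.

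With age in UBR4 mKO the ribosomal genes lay above the median of all genes. Their median log2 fold change was 0.16, against -0.043 over all genes, and 0 of the 81 lay below the latter. Limma called 4 higher and 0 lower, against 2.45% and 3.85% of all genes. After scaling the ribosomal median was 0.22, with 4 called higher and 0 lower, against 5.97% and 5.30%. With mitochondrial genes left out of the total 17 of the 81 (21.0%) were called higher, against 4.51% of all genes. Without replicate 3 of 24-month UBR4 mKO the difference between the medians was 0.056 in place of 0.20, 17 of the 81 lay below the median of all genes, and 1 gene, Rps25, was called, against 2.85% of all genes higher.
Rps25, which initiation at some viral internal ribosome entry sites requires, lay at 499, 523, 500.4 and 563 TPM at 6 months and at 599, 618, 762 and 665 TPM at 24 months. The ages did not overlap, and the log2 fold change was 0.34 (SE 0.078, limma adjusted p = 0.015), or 0.27 without replicate 3 (limma adjusted p = 0.026). Rps27 rose by 0.35 (limma adjusted p = 0.034), and summed with its copy by 0.45 (limma adjusted p = 0.028). Without replicate 3 Rps27 alone had 0.27 (limma adjusted p = 0.076). Rpl22l1 was also called (0.31, limma adjusted p = 0.045), but not after scaling (0.37, limma adjusted p = 0.10), without replicate 3 (0.29, limma adjusted p = 0.081) or without replicate 4 of 6-month UBR4 mKO (0.28, limma adjusted p = 0.11). Rpl10 had 0.42 (limma adjusted p = 0.060) alone and 0.48 (limma adjusted p = 0.0059) with Rpl10-ps3, which went from 435 to 574 TPM to 618 to 796 TPM.

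Whether the effect of genotype differed between the ages was tested as an interaction. Limma called 0 of the 81 genes, against 4.70% of all genes, and 2 had an unadjusted p under 0.05, against 31.0% of all genes. After scaling 0 were called, against 1.99% of all genes, with 28 at an unadjusted p under 0.05, or 34.6%, against 18.6% of all genes. Rpl3 had the smallest p, with an interaction of -0.67 (SE 0.21, limma adjusted p = 0.068), and Rpl27 and Rpl7l1 followed with -0.36 and -0.19 (limma adjusted p = 0.14 and 0.21). Summed with its copy, Rpl27 had an interaction of -0.042 (limma adjusted p = 0.80). Without replicate 3 of 24-month UBR4 mKO the interaction of Rpl3 was -0.81 (limma adjusted p = 0.017), and after scaling with all samples it was -0.33 (limma adjusted p = 0.46).

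The ratio of Rpl3l to Rpl3 does not depend on the scaling of a sample. It was 20.9, 18.5, 17.0 and 18.9 in 6-month WT and 11.7, 14.6, 16.4 and 16.2 in 6-month UBR4 mKO, so that every UBR4 mKO sample lay below every WT sample. It was 11.1, 11.6, 13.8 and 8.35 in 24-month WT and 13.5, 14.2, 11.0 and 14.8 in 24-month UBR4 mKO. The ratio was thus highest in young WT muscle, and the ranges of the other 3 groups overlapped.
At 6 months the log2 ratio was lower in UBR4 mKO by 0.36 (SE 0.13), a 1.28-fold lower ratio. With age in WT it was lower by 0.76 (SE 0.16), a 1.70-fold lower ratio. Each difference had p = 0.029 in an exact two-sided permutation test, the smallest p that 4 against 4 samples allow, and p = 0.057 after adjustment over 4 comparisons, so neither passed the threshold after adjustment. The difference between genotypes at 24 months was 0.27 (SE 0.18, exact permutation p = 0.23), and that between ages in UBR4 mKO -0.14 (SE 0.15, exact permutation p = 0.43). Without replicate 3 of 24-month UBR4 mKO these were 0.36 (exact permutation p = 0.086) and -0.046 (exact permutation p = 0.83).

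**Figure D4:**
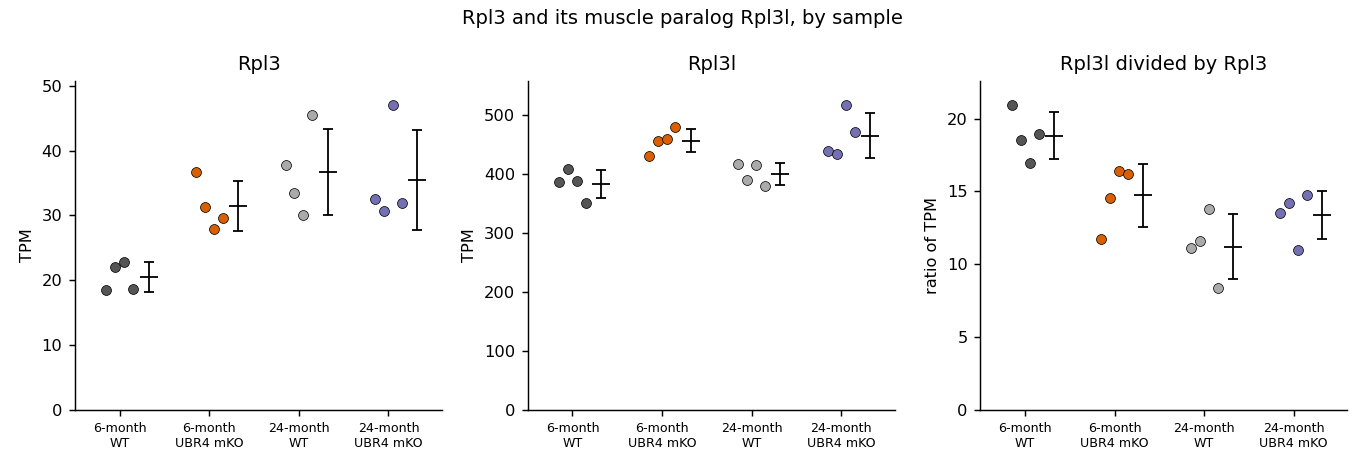
TPM of Rpl3 and of Rpl3l and their ratio in each sample, with the mean and SD of 4 samples a group. Rpl3 is lowest in 6-month WT, at 18.5 to 22.8 TPM, and the ratio is highest there, at 17.0 to 20.9.

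Some gene lists of other cells moved alongside Rpl3. Rpl3 is made by almost all cells and Rpl3l by myofibers, and in RNA of whole muscle fewer cells of a type and less RNA per cell cannot be told apart. The summed TPM of 9 leukocyte genes, none of them at 0 throughout a group, was 49.8 to 81.1 in 6-month WT, 114 to 267 in 6-month UBR4 mKO, 164 to 245 in 24-month WT and 134 to 374 in 24-month UBR4 mKO. The 6 genes of muscle regeneration summed to 14.6 to 20.7, 27.5 to 39.5, 25.7 to 32.1 and 23.8 to 37.9 TPM in the same order. Both lists were lowest in 6-month WT with no overlap with the other groups, as was Rpl3. Of all genes tested, 68.3% had their lowest TPM in a 6-month WT sample, which is a weaker condition than no overlap. The summed TPM of the 10 myofiber genes was also lowest there, with 72966 to 81375 TPM in 6-month WT and at least 87611 TPM in every other sample, but their mean log2 TPM, which weights the genes equally, overlapped between 6-month WT (11.03 to 11.24) and both 24-month groups (11.03 to 11.17 in WT and 10.99 to 11.28 in UBR4 mKO). Endothelial genes, 5 in all, did not follow this order: they summed to 70.9 to 96.3 TPM in 6-month WT, 111 to 120 TPM in 6-month UBR4 mKO, 71.9 to 85.4 TPM in 24-month WT and 58.1 to 91.6 TPM in 24-month UBR4 mKO. The summed TPM of the 6 fibroblast genes overlapped between the groups, as did those of 5 adipocyte, 5 Schwann cell and 5 blood genes. The part of these cells in the change of Rpl3 was not tested.

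Ratios were also taken for the other 4 paralog pairs with both genes tested, which gave 20 tests with the pair above. Rps27l to Rps27 was 0.626, 0.640, 0.685 and 0.682 in 6-month WT and 0.568, 0.562, 0.584 and 0.553 in 6-month UBR4 mKO. The UBR4 mKO samples were all lower, by a log2 of 0.22 (SE 0.037, exact permutation p = 0.029). Rps27l is a p53 target, and this ratio, which moves with reads given to Rps27rt, was 0.539 to 0.710 in WT and 0.442 to 0.565 in UBR4 mKO at 24 months. At 6 months Rps27 alone had a log2 fold change of 0.12 in TPM (limma adjusted p = 0.26). Summed with Rps27rt it had 0.013 (limma adjusted p = 0.93), and the ratio with this copy added was not tested. Rpl36al to Rpl36a was lower in 6-month UBR4 mKO in every sample, 1.39 to 1.49 against 1.56 to 1.66 in WT (exact permutation p = 0.029), and overlapped at 24 months. Rpl7l1 to Rpl7 was higher, 0.108 to 0.121 against 0.093 to 0.103 (exact permutation p = 0.029). Rpl22l1 to Rpl22 was 1.22 to 1.72 in WT and 0.936 to 1.27 in UBR4 mKO at 6 months, and 1.29 to 1.97 and 1.03 to 1.39 at 24 months, with an exact permutation p = 0.057 at either age. Adjusted over the 20 tests, the smallest p was 0.11.

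**Figure D5:**
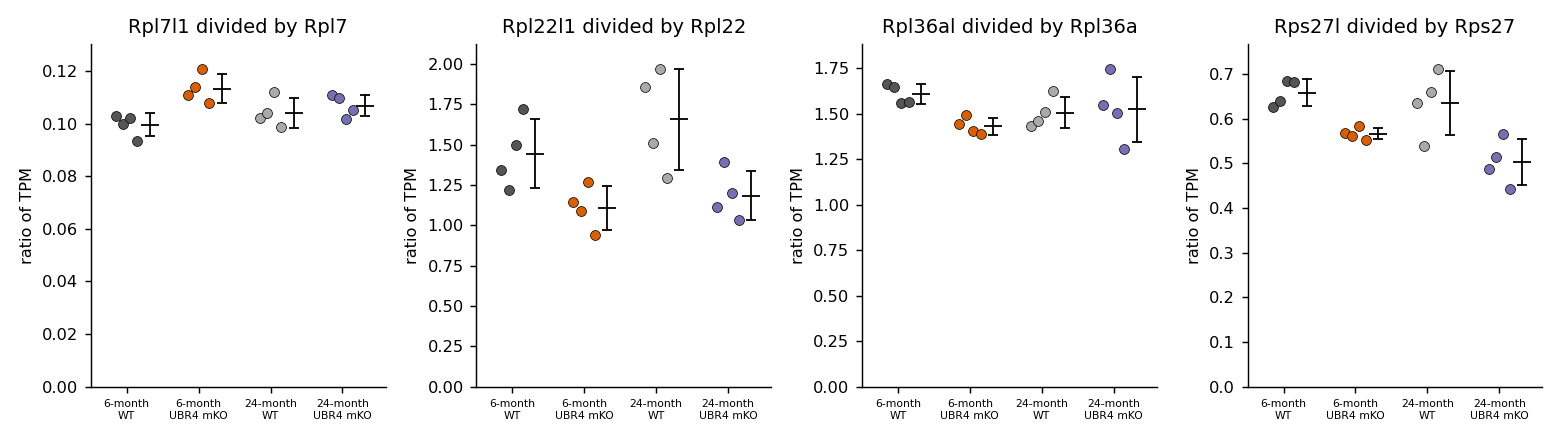
Ratio of TPM between the paralogs of 4 other pairs in each sample, with the mean and SD of 4 samples a group. At 6 months the UBR4 mKO samples lie apart from WT for Rpl7l1 (higher), Rpl36al (lower) and Rps27l (lower), while the Rpl22l1 groups overlap.

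Within groups most ribosomal protein genes varied together. After scaling, the deviation of each gene from its group mean was set against the mean deviation of the others over the 16 samples. The correlation was above 0 for all 81, with a median r of 0.97, against a median of 0.057 for the 10547 other genes. These points share the scaling and sequencing depth of each sample, and without replicate 3 of 24-month UBR4 mKO the median was 0.93 over 15 samples. Rps12, Rpl34 and Rpl3 followed the rest least in those 15 samples, with r of 0.034, 0.12 and 0.46. Rpl3l had 0.54. The longest coding transcript of the 81 genes had a median of 937 bases, against 3086 over all genes, and the part of this length in the behaviour of single libraries was not tested. The 13 genes with a pyrimidine run that starts at C had a median log2 fold change of 0.099 at 6 months, and the 48 genes with windows but without such a start had 0.081, with overlapping ranges. The 48 include Rpl7a, Rpl27a and Rpl34, whose long runs hold an annotated start at T.

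Of 4 ribosomal genes that the symbol pattern does not take, 0 were called in TPM at 6 months, against 43.7% of all genes higher, and 3 fell after scaling, against 10.2%. Rps3a1, Fau (which encodes RPS30) and Rack1 (listed under its older symbol Gnb2l1), a scaffold on the small subunit, had log2 fold changes of -0.019, 0.12 and -0.0075 at 6 months in TPM. With age in WT, Rack1 rose by 0.22 in TPM (limma adjusted p = 0.046), but had -0.050 after scaling (limma adjusted p = 0.80).
Of 64 genes of ribosome biogenesis, the factors that make and process ribosomal RNA and assemble the subunits, 63 were tested. At 6 months 25 rose and 0 fell in TPM, against 43.7% of all genes higher, with a median of 0.25 against 0.33 over all genes, while after scaling 0 rose and 5 fell, against 6.66% and 10.2% of all genes. Without replicate 4 of 6-month UBR4 mKO 12 rose, against 29.1% of all genes, and without replicate 4 of 6-month WT 11 rose, against 24.7%. Taf1b, a subunit of the factor that brings RNA polymerase I to its promoter, rose by 0.68 (limma adjusted p = 0.00097), and Eftud1, a GTPase of late large subunit maturation, by 0.52 (limma adjusted p = 0.0032). After scaling they had 0.33 and 0.18 (limma adjusted p = 0.053 and 0.20). With age in WT 40 of the 63 rose and 0 fell in TPM, against 24.0% of all genes higher, with a median of 0.37 against 0.26, and after scaling 4 rose, against 4.44%. Without replicate 4 of 6-month WT 14 rose, against 8.41% of all genes. Riok3, an atypical kinase, rose by 0.72 (limma adjusted p = 0.00038), and Mdn1, an ATPase that remodels the large subunit, by 0.65 (limma adjusted p = 0.047). After scaling Riok3 had 0.45 (limma adjusted p = 0.0081) and Mdn1 0.41 (limma adjusted p = 0.15), and Mdn1 also lost its call without replicate 4 of 6-month UBR4 mKO (limma adjusted p = 0.054) or of 6-month WT (0.49, limma adjusted p = 0.17). At 24 months 0 of the 63 were called in TPM and 1 fell after scaling, against 0.913% of all genes called. With age in UBR4 mKO 0 were called in TPM, with 6 higher after scaling, against 5.97% of all genes.
Of 12 genes that control TOP mRNAs or ribosomal gene transcription, 5 rose in TPM at 6 months and 3 with age in WT, and 0 fell, against 43.7% and 24.0% of all genes higher. After scaling 1 rose and 1 fell at 6 months, against 6.66% and 10.2% of all genes, and 1 rose with age in WT, against 4.44%. With age in UBR4 mKO 1 rose and 1 fell in TPM, against 2.45% and 3.85% of all genes, and 1 rose and 1 fell after scaling, against 5.97% and 5.30%. Myc, which drives ribosome biogenesis genes, rose by a log2 of 1.01 at 6 months (limma adjusted p = 0.00026) and by 1.56 with age in WT (limma adjusted p = 1.1e-05). It kept both calls after scaling, with 0.68 and 1.30. Its interaction was -1.61 (limma adjusted p = 0.00079). Rps6kb2, which encodes an S6 kinase, rose in TPM at 6 months by 0.65 (limma adjusted p = 0.0024), and Eif4ebp1, a translation repressor under mTORC1, rose with age in WT by 0.77 (limma adjusted p = 0.010) and in UBR4 mKO by 0.79 (limma adjusted p = 0.017). After scaling Rps6kb2 had 0.30 (limma adjusted p = 0.098), and Eif4ebp1 had 0.50 (limma adjusted p = 0.15) with age in WT and 0.85 (limma adjusted p = 0.017) in UBR4 mKO. Without replicate 3 of 24-month UBR4 mKO 7 of the 12 rose and 1 fell at 6 months (53.6% of all genes rose), 8 rose with age in WT (37.6% of all genes rose), and 2 rose and 0 fell with age in UBR4 mKO (2.85% and 3.81% of all genes). Without replicate 4 of 6-month UBR4 mKO or of 6-month WT 3 rose at 6 months, against 29.1% and 24.7% of all genes.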

How the data were processed

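RNA of 16 tibialis anterior muscles was sequenced as 100 bp paired-end reads. The authors trimmed and filtered the reads, aligned them to GRCm38 with CLC Genomics Workbench and deposited TPM values per gene. Every sample adds up to the same total, so the depth is unknown and gives no counting error. Annotation release, strand use and the treatment of reads with several matches are not given in the sources used here. TPM corrects for transcript length, and a gene's value moves with all other genes, mitochondrial ones included.

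Values were fitted as log2(TPM + 0.1) in limma 3.58.1 (R 4.3.3), with a variance trend, 4 groups in 1 model and Benjamini-Hochberg adjustment over the 10628 genes with a mean of at least 1 TPM, at a threshold of 0.05. Fold changes are on this scale, which understates low genes. No count test was possible, since TPM keeps no depth. Ratios of paralogs used exact two-sided permutation tests over 70 assignments. Copies were sought with blastn 2.17.0 (at least 95% identity over 80% of the coding sequence). The fit was tested on simulated data. The labels number replicates but do not state pairing. P-values measure the spread between mice.

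The members and gene lists were chosen with earlier results of these data known. Named were Rpl3, Rpl3l and the other paralog pairs, the 3 highest and lowest genes by mean TPM, up to 3 called genes with the greatest rise and fall in each comparison (or, with none called, the 3 with the smallest p), ribosomal genes outside the symbol pattern, and up to 2 genes of each other list per direction. Genes called after scaling, those with copies and the rest of those called in TPM were added after their values were seen. Alternatives were median-of-ratios scaling, leaving out mitochondrial genes, other pseudocounts, filters and variance models, a Kruskal-Wallis test with Dunn's test, only the groups compared, Y-linked genes as a covariate, pseudogenes added, each sample left out and a replicate block. Added after seeing the data were near-identical copies and median-of-ratios scaling, gene lists and paralog ratios without single samples. Values of some single genes are not reported here.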

Additional observations from a re-analysis of the deposited data

Results flagged for a closer look

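In groups of 4 samples, 120 sets of values were checked for a sample set apart by Dixon's criterion (its gap to the next sample as a share of the range), which chance meets in about 1 in 20. It was met 10 times. 6 of them concerned replicate 3 of 24-month UBR4 mKO, always as the highest sample: Rpl27 at 22.9 TPM (others 17.9 to 18.6), Rpl3 at 47.0 TPM (others 30.6 to 32.6), Rplp0 at 788 TPM (others 598 to 629), Rplp1 at 1659 TPM (others 1200.0 to 1254), Rps27 at 268 TPM (others 216 to 220.2) and Rps3a1 at 566 TPM (others 465 to 477). The share of non-mitochondrial TPM held by ribosomal protein genes was lowest, at 3.57%, in replicate 3 of 6-month UBR4 mKO (others 3.80 to 3.84%). Rpl34 was highest, at 65.0 TPM, in replicate 2 of 6-month WT (others 45.1 to 48.1 TPM). Rpl7 was lowest, at 148 TPM, in replicate 3 of 24-month WT (others 172 to 174 TPM). Rps3a1 was highest, at 481 TPM, in replicate 4 of 6-month UBR4 mKO (others 444 to 445 TPM), the sample that went against its label for sex.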

How the results depend on the processing

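Counts of ribosomal protein genes called moved with the processing, and each is given with the percent of all genes called in the same direction and fit. In UBR4 mKO against WT at 6 months, 12 genes were called, all higher (all genes 43.7%). The direction reversed under median-of-ratios scaling (9, all lower, 10.2%) and without mitochondrial genes (17, all lower, 5.87%). There were 7 higher without a variance trend (43.4%), 7 by the Kruskal-Wallis test with Dunn's test (23.1%), 19 with only the compared groups fitted (44.3%) and 30 with array weights (60.5%). At 24 months the count of 0 became 2, both lower, with array weights (0.781%). With age in WT, 13 (24.0%) became 1 under median-of-ratios scaling (4.44%), 2 without mitochondrial genes (5.82%), 8 without a variance trend (23.9%) and 64 with array weights (59.0%). With age in UBR4 mKO, 4 (2.45%) became 17 without mitochondrial genes (4.51%), 1 without a variance trend (2.24%), 10 with array weights (8.86%) and 0 with only the compared groups (1.59%). Dunn's test called 0 ribosomal genes with age in either genotype, and 0 of all genes. The interaction went from 0 to 5, all lower, with array weights (25.6%). The cause of these moves was not tested.

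With single samples left out, the counts at 6 months ran from 5 (without 6-month WT replicate 1, against 33.9% of all genes higher) to 18 (without 24-month UBR4 mKO replicate 3, 53.6%). With age in WT they ran from 4 (without 24-month WT replicate 4, 9.91%) to 31 (without 24-month UBR4 mKO replicate 3, 37.6%). With age in UBR4 mKO they ran from 0 (without 6-month UBR4 mKO replicate 3, 1.37%) to 8 (without 24-month UBR4 mKO replicate 1, 1.87%), and for the interaction from 0 to 2 (both lower, without 6-month WT replicate 2, 23.1%). At 24 months they stayed at 0. With median-of-ratios scaling as well, 48 fell at 6 months without 24-month UBR4 mKO replicate 3 (59.3%, against 17.1% of all genes), 2 without 6-month UBR4 mKO replicate 4 (9.63% of all genes) and 0 without 6-month WT replicate 4 (6.18%). With age in WT the same 3 fits gave 6 (4 of them lower, against 10.7% of all genes lower and 8.19% higher), 0 and 0. With age in UBR4 mKO they gave 2, 1 and 5, all higher, against 7.66%, 5.37% and 5.62% of all genes higher. In TPM, the median relative to all genes ran from -0.30 to -0.16 at 6 months and from -0.17 to -0.031 with age in WT. With age in UBR4 mKO it ran from 0.056 to 0.27, and for the interaction from 0.17 to 0.39. At 24 months it changed sign without replicate 3 of UBR4 mKO (lowest -0.051, highest 0.15). This quantity, taken in each sample, had an SD of 0.20 within groups. Leaving out 1 of 4 samples moves a group by only part of that sample's deviation, so moves below this SD show little about stability.

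The replicate numbers did not pair the samples: correlations of same-numbered samples ran from -0.15 to 0.18. With the replicate block 5 genes were called at 6 months (38.9% of all genes higher), 8 with age in WT (18.1%) and 1 with age in UBR4 mKO (1.97%). The differences in the log2 ratio of Rpl3l to Rpl3, -0.36 at 6 months and -0.76 with age in WT, had p = 0.125 (exact sign flips of 4 pairs, the smallest p these allow) under the block, which therefore could not pass. With single samples left out they ran from -0.42 to -0.25 (exact permutation p = 0.029 to 0.086) and from -0.87 to -0.63 (exact permutation p = 0.029 to 0.057).

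Mean shares of TPM depended on what was counted. As shares of non-mitochondrial TPM they were 4.24% and 3.76% in 6-month WT and UBR4 mKO and 4.10% and 4.26% at 24 months. With named pseudogenes added the shares were 1.96% and 2.08% at 6 months, and with near-identical copies 1.99% and 2.10%, and 2.20% in 24-month WT.

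Among single genes, signs turned under median-of-ratios scaling for Rpl27 (-0.047), Rpl3l (-0.10) and Rpl7l1 (-0.094) at 6 months, for Rpl3l with age in WT (-0.21), and for the interactions of Rpl3l (0.29) and Rpl7l1 (0.14). Without mitochondrial genes they turned for Rpl3l at 6 months (-0.0021) and with age in WT (-0.13) and for the interactions of Rpl3l (0.17) and Rpl7l1 (0.024), and with array weights for Rpl3l with age in UBR4 mKO (-0.017). With single samples left out, Rpl3 at 24 months ran from -0.19 to 0.055, Rpl3l with age in UBR4 mKO from -0.027 to 0.056, and the interaction of Rpl3l from -0.091 to 0.0022. The call of Rpl3 held in 27 of the 30 alternatives at 6 months and in 29 of 30 with age in WT. Of these 30, 16 left out a single sample, and most kept TPM as the reference. At 6 months the call ended under median-of-ratios scaling, with the highest p (limma adjusted p = 0.30). With age in WT it ended by Dunn's test (adjusted p = 0.12).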
